A study of Mus musculus with 10 samples.

Results

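The 10 genes described here encode proteins of the lysosome. They are the sorting receptor gene M6pr, the membrane protein genes Lamp1 and Lamp2, the protease genes Ctsb, Ctsd, Ctsh and Lgmn, and Psap, Npc2 and Grn, for other proteins of the lysosomal lumen. They were taken by symbol, and all 10 were found among the 24059 gene symbols of the count table. M6pr was chosen by its own counts in the mice compared here, so its diet difference is given as a description with no test. Female C57Bl/6 mice, 14 weeks old by the labels, had been on 1 of 2 high-fat diets with added cholesterol for 8 weeks. FO was rich in n-3 PUFAs from menhaden fish oil and CO in saturated fat from coconut oil, and corn oil was part of both. The comparison asks which lung transcripts differ between the diets. Each diet had 5 mice, each mouse gave 1 sample of whole lung flushed with PBS, the sources name no transgene or deletion, and a group on standard chow was not analysed here.

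Lysosomes are acidic organelles in which proteins, lipids and sugars from outside or inside the cell are broken down. Most of their soluble enzymes receive a mannose 6-phosphate tag in the Golgi, and mannose 6-phosphate receptors bind the tag and carry the enzymes onward. In the lung, macrophages that clear surfactant and debris are rich in lysosomes, and alveolar type 2 cells store surfactant in lamellar bodies, which are lysosome-related. Many lysosomal genes carry CLEAR elements in their promoters, E-boxes (CACGTG) with set flanks that are bound by the transcription factor TFEB.

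RefSeq promoter windows of GRCm38.p6, from 250 bases before to 50 bases after a gene start, were at hand for 7 of the 10 genes and were searched on both strands. M6pr, Ctsb and Ctsh had no entry. The E-box CACGTG was present for 3 of the 7, Lamp1, Ctsd and Lgmn, and for 8.09% of all 27025 genes with a window. The longer TCACGTG, which contains that E-box, was found for the same 3 genes and for 4.29% of all genes. TCACGTGA, which contains both, was found for Ctsd among the 7 and for 1.12% of all genes. The full CLEAR consensus, which is longer still, was found for 0 of the 7 and for 0.37% of all genes. The stretches that follow show E-boxes in capitals, because they are a feature of 3 members that played no part in the choice of genes. Ctsd had a further E-box at -245 bases from the gene start, which is not printed. The Lamp1 stretch ends at the last base before the gene start. The printed Ctsd and Lgmn stretches lie inside the gene spans of GENCODE, whose starts for these genes differ from those of the windows.
Lamp1, chr8:13159088-13159160, plus strand: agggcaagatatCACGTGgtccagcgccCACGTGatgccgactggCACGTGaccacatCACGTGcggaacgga
Ctsd, chr7:142387908-142387937, minus strand: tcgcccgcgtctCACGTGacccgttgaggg
Lgmn, chr12:102439124-102439153, minus strand: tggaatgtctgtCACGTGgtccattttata
Lamp1 held 4 copies within 73 bases. A match describes the letters of the window and says nothing of the binding of a factor.

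Between 229766 and 1124963 reads per mouse had been counted on genes. The ribosomal RNA precursor Rn45s took 21.8% to 87.0% of them, which left 45177 to 473254 counts for all other genes. Levels are given as CPM, counts scaled to a library of 1e6 counts after TMM scaling (a factor per mouse that lines up most genes). A floor of 3 counts was taken as what can be read in a mouse. It stood for 2.29 CPM in the deepest library and 19.9 CPM in the shallowest, CO mouse 1. FO mouse 3 was nearly as shallow, with a floor of 19.4 CPM. Intervals and floors cover counting error only. FO mouse 2 and CO mouse 5 stood apart by their share of the nuclear RNA Malat1, and the library kit of each mouse is not given in the sources used here. The lung markers Sftpc, Sftpb, Scgb1a1, Ager, Pecam1 and Cldn5 had counts in all 10 mice. In whole lung, fewer cells of a type and less RNA per cell cannot be told apart.

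Per exon length, the 10 genes differed widely in level. Npc2, whose product binds cholesterol in the lysosomal lumen, had the highest level, 70.6 ± 10.7 CPM per kb of exon (SD, n = 10 mice). Lamp1, for a heavily glycosylated protein of the lysosomal membrane, came next at 41.8 ± 11.7 CPM per kb, and Npc2 lay above it in 10 of 10 mice (two-sided exact sign-flip permutation test, adjusted p = 0.018 over 9 neighbouring pairs). Ctsd, for the aspartic protease cathepsin D, had 35.1 ± 40.3 CPM per kb and lay below Lamp1 in 8 of 10 mice, a difference within the spread (exact permutation test, adjusted p = 0.73). This rested on FO mouse 3. Without it Ctsd had 22.5 ± 6.22 CPM per kb (SD, n = 9 mice) and lay below Lamp1 in 8 of 9 mice (exact permutation test, unadjusted p = 0.0078), a run added after seeing the data. Psap, whose product is cut into the saposins that help enzymes degrade sphingolipids, had 16.5 ± 3.90 CPM per kb and lay below Ctsd in 9 of 10 mice (exact permutation test, adjusted p = 0.044).

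The lower part of the order held Ctsh at 12.6 ± 6.36, Grn at 9.87 ± 3.51 and Lamp2 at 9.27 ± 2.39 CPM per kb. The lowest levels per kb were those of M6pr at 4.83 ± 3.17, of Ctsb, for the cysteine protease cathepsin B, at 3.75 ± 1.27, and of Lgmn, for the asparagine-specific protease legumain, at 3.48 ± 2.09. From Psap down to Lamp2 no neighbours in the order differed at an adjusted p under 0.05 in these exact permutation tests, nor did Ctsb and Lgmn. Lamp2 lay above M6pr in 9 of 10 mice. The pairs that hold M6pr are among the 9 pairs of the adjustment, but their p-values are not given, since its counts chose the gene.

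**Figure D1:**
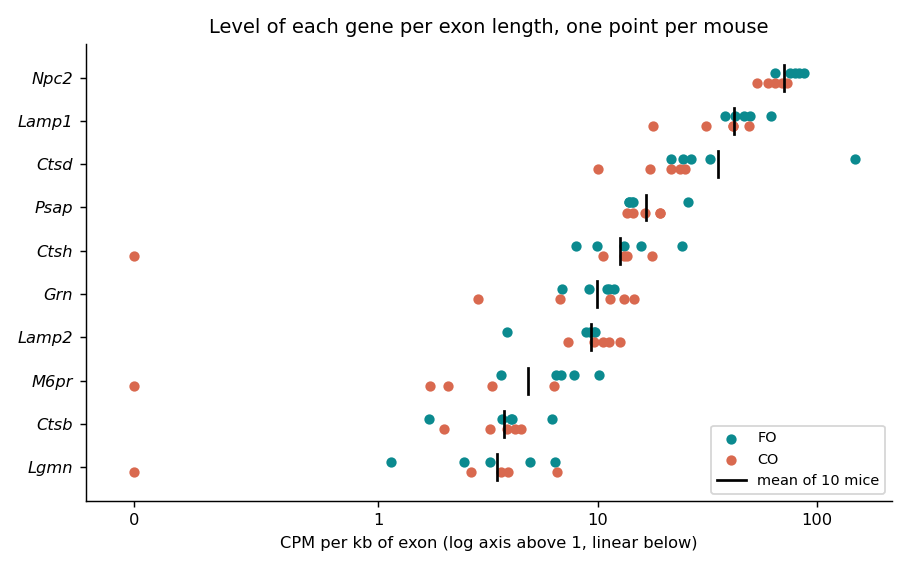
Level of each gene in CPM per kb of exon on the horizontal axis (logarithmic above 1, linear below), with 5 FO mice and 5 CO mice as points and the mean of 10 mice as a line. Npc2 leads at 70.6 CPM per kb and Lgmn is last at 3.48, and 1 FO mouse lies far to the right for Ctsd at 148.6.

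M6pr encodes the cation-dependent mannose 6-phosphate receptor. The gene spans 122308720 to 122317680 of chromosome 6 (mm10) and no other gene is annotated across it. FO mice 1 to 5 had 8, 26, 4, 14 and 5 counts, and CO mice 1 to 5 had 0, 3, 2, 8 and 4. Scaled to depth, the level was 9.21, 19.9, 25.8, 17.3 and 16.4 CPM in FO mice 1 to 5. In CO mice 1 to 5 it was 0, 16.0, 4.38, 8.40 and 5.25 CPM. All 5 FO mice lay above the CO median and 4 lay above every CO mouse, but the groups overlapped, since CO mouse 2 was higher than FO mouse 1. Means were 17.7 ± 6.01 CPM for FO and 6.80 ± 5.94 CPM for CO (SD, n = 5 each).

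These values chose the gene and support nothing about the diet. M6pr did not pass the filter on low counts, which was run with Rn45s kept in the library size. Its log2 fold change (FO over CO, written log2FC from here on) was 1.29 with a standard error (SE) of 0.55 when edgeR was run on all 14161 genes that had a count. Behind it stood 57 counts from FO and 17 from CO mice. CO mice 1 to 3 were at or under the floor of 3 counts, and in CO mouse 1 the exact 95% Poisson interval of a count of 0 reached 24.5 CPM, above the FO mean. That of FO mouse 3, with 4 counts, ran from 7.03 to 66.1 CPM. When single mice were left out, log2FC lay between 1.14 and 1.54. GENCODE also lists a pseudogene, M6pr-ps, which has no row of its own in the table, and whether its reads went to M6pr was not tested.

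Over the 10 mice, the tested genes whose log2 CPM followed M6pr most closely were Kctd12 (Pearson r = 0.90), Csnk1a1 (0.89), Dnajc8 (0.87), Tmem66 (0.86) and Fabp4 (0.86). They are the highest of 2438 genes measured in the same libraries, and none is on the lysosome lists used here. Since M6pr was chosen by its counts in these mice, the ranking favours genes that share its diet difference. It is a description and supports nothing about M6pr or the diet.

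**Figure D2:**
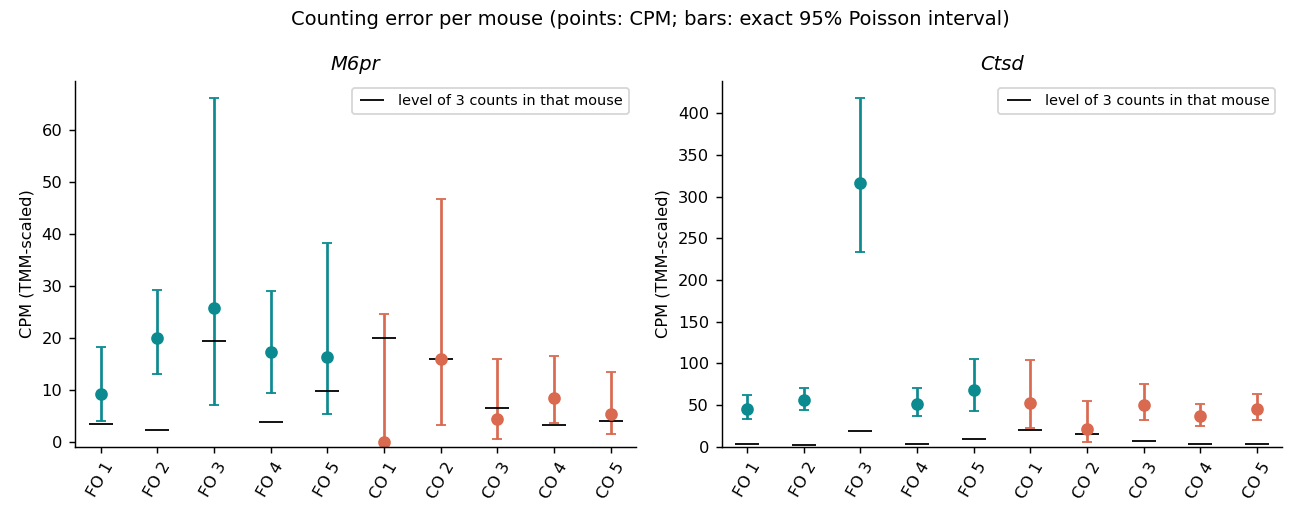
CPM of M6pr (left) and Ctsd (right) in each of the 10 mice, with exact 95% Poisson intervals as bars and the level of 3 counts in that mouse as a dash. Intervals of M6pr overlap widely between the diets, and the Ctsd interval of FO mouse 3, from 233.9 to 418.0 CPM, lies above those of all other mice.

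Of the 10 genes, 7 passed the filter (Lamp1, Lamp2, Ctsd, Ctsh, Psap, Grn and Npc2), and 1 of these 7, Ctsd, passed an unadjusted p-value threshold of 0.05 in edgeR's quasi-likelihood test. Over all 2438 genes tested 2.91% passed it, 1.68% with higher and 1.23% with lower levels in the FO group. DESeq2 called 2.54% and, among the 7, also Ctsd alone. In edgeR 0 genes had a Benjamini-Hochberg adjusted p-value under 0.05, against 71 at an unadjusted 0.05, while DESeq2 had 1, and the edgeR adjusted p-values of the 7 genes were all 0.998. Of the 7 genes 4 had a positive and 3 a negative log2FC, with a median of 0.20 against 0.00 over all genes tested. With library size alone in place of TMM the median of all genes tested moved to -0.55, and Lamp1, Ctsh and Npc2 then turned negative, at -0.40, -0.27 and -0.25. None of the 10 genes had groups without overlap, as 0.41% of the genes tested had. Ctsb and Lgmn, like M6pr, were read from the edgeR run on genes with a count, where 4.15% passed the threshold and neither of these did.

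Ctsd spans 142375911 to 142388038 of chromosome 7 on the minus strand. The protein-coding gene model Gm49369 overlaps it on the same strand, so that reads of the overlap cannot be assigned with certainty. FO mice 1 to 5 had 46.0, 56.6, 316.1, 51.9 and 68.8 CPM of Ctsd. CO mice 1 to 5 had 53.2, 21.3, 50.4, 36.7 and 45.9 CPM. FO mouse 3 lay far above every other mouse. The other 4 FO mice lay near the CO group, and 2 of them were within its range. Means were 108 ± 117 CPM for FO and 41.5 ± 12.9 CPM for CO (SD, n = 5).

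The log2FC of Ctsd was 1.14 (SE 0.48, edgeR p = 0.029, adjusted p = 0.998), and a two-sided exact permutation test on log2 CPM gave p = 0.056. FO mouse 3 set most of this size. Its value was 5.66 times the mean of the other 4 FO mice, 55.8 ± 9.65 CPM (SD). Without FO mouse 3, log2FC was 0.37 (SE 0.29) and the edgeR call was lost. It was also lost without CO mouse 2 and without CO mouse 4, at log2FC values of 1.01 and 1.08, and with library size alone in place of TMM, at 0.39 (SE 0.66).

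Before any scaling factor was applied, FO mouse 3 had 49 Ctsd counts among its 46470 counts on genes other than Rn45s, or 0.105% (95% exact Clopper-Pearson interval 0.078% to 0.139%). In the other 9 mice the share lay between 0.0072% in CO mouse 2 and 0.0230% in FO mouse 5. The interval of FO mouse 5 reached up to 0.035%, below the lower bound of FO mouse 3.

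Psap and Lamp2 also had FO mouse 3 apart from its group, but within counting error of it. Psap, at 60277627 to 60302597 of chromosome 10, had 38.0, 38.2, 71.0, 39.5 and 39.3 CPM in FO mice 1 to 5. CO mice 1 to 5 had 39.9, 37.3, 52.6, 45.1 and 52.5 CPM. The exact 95% Poisson interval of FO mouse 3, on 11 counts, ran from 35.4 to 127.0 CPM and took in the other FO mice. Outside FO mouse 3 the FO values lay close together at the low end of the CO range. The log2FC of -0.14 (SE 0.27) was within the spread between mice (edgeR p = 0.61, two-sided exact permutation p = 0.89).

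Lamp2 is a membrane protein needed for the fusion of autophagosomes with lysosomes and for chaperone-mediated autophagy, and its gene spans 38401357 to 38456454 of chromosome X. FO mice 1 to 5 had 48.3, 46.6, 19.4, 44.5 and 49.1 CPM. CO mice 1 to 5 had 53.2, 63.9, 57.0, 36.7 and 48.6 CPM. Here FO mouse 3 was the lowest of all, on 3 counts, with an exact 95% Poisson interval of 3.99 to 56.6 CPM that takes in the other FO mice. All 5 FO mice lay below the CO median, but the log2FC of -0.20 (SE 0.28) was within the spread (edgeR p = 0.49, two-sided exact permutation p = 0.24).

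Macrophage markers were read beside these genes. Of 16 markers 14 were found in the table, all 14 with a count in at least 1 mouse, and Adgre1 and Siglecf were not found under these symbols. Their summed level was 137.1 to 341.9 CPM across FO mice and 114.4 to 179.8 CPM across CO mice, and FO mouse 3 was the highest. Log2 CPM of Ctsd had a Pearson r of 0.84 and a Spearman rho of 0.55 with the log2 sum over the 10 mice, values that share library and depth. That was the highest r of the 10 members with this sum, and the lowest was that of Lamp2 at -0.67, which was 0.16 without FO mouse 3. For Ctsd the Pearson r was 0.44 without FO mouse 3. Without FO mice 3 and 5, the farthest from the median of the sum, it was 0.13, so the relation rests on those mice. Among the 14 markers 11 had a positive log2FC and 0 passed an unadjusted p of 0.05 in edgeR on genes with a count. Of the 2 past the filter, Mrc1, the mannose receptor gene, had a log2FC of 0.68 (SE 0.37) and C1qa, a complement gene, one of 0.21 (SE 0.31), which was -0.029 without FO mouse 3. Mrc1 passed the edgeR threshold in 3 of the alternatives, the replicate block (0.81), FO mouse 2 and CO mouse 5 left out, and CO mouse 5 alone left out. The part of macrophage number in the level of Ctsd was not tested.

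**Figure D3:**
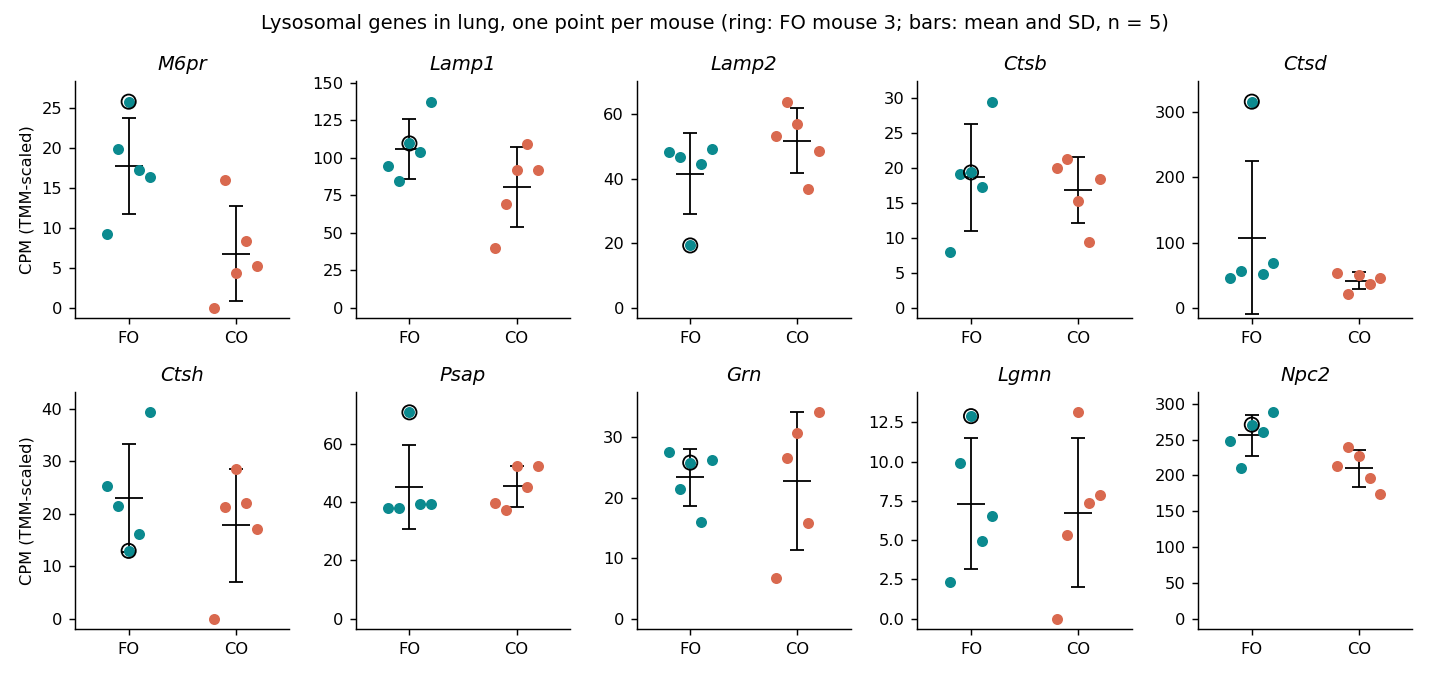
CPM of the 10 lysosomal genes in 5 FO and 5 CO mice, with 1 panel per gene, bars for mean and SD, and a ring around FO mouse 3. In the Ctsd panel 4 FO mice sit between 46.0 and 68.8 CPM, near the CO mice, and FO mouse 3 is at 316.1 CPM.

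Npc2 was the most deeply counted of the 10 genes, with 833 counts from FO and 501 from CO mice. It spans 84754562 to 84773152 of chromosome 12. FO mice 1 to 5 had 248.6, 210.9, 271.0, 260.7 and 288.1 CPM. CO mice 1 to 5 had 212.6, 239.7, 227.8, 196.3 and 174.6 CPM. Of the FO mice 4 lay above every CO mouse, and FO mouse 2 lay within the CO range. The log2FC of 0.29 (SE 0.20) did not pass the edgeR threshold (p = 0.17, adjusted p = 0.998), while the two-sided exact permutation test of this single gene gave an unadjusted p = 0.040. When single mice were left out it lay between 0.22 and 0.35.

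Neutrophil markers were also read beside these genes, and Npc2 is named because its r with their sum was the highest of the 10 members. Of 10 markers 9 were found, and their summed level was 57.3 to 309.5 CPM across FO mice and 33.2 to 58.6 CPM across CO mice. The log2 sum and log2 CPM of Npc2 had a Pearson r of 0.72 and a Spearman rho of 0.79 over the 10 mice, in the same libraries. The Pearson r was 0.74 without FO mice 1 and 5, the farthest from the median of the sum. Lamp1 (0.56) and M6pr (0.55) came next, and Lamp2 was lowest at -0.37. Npc2, Lamp1, M6pr and the sum all had higher FO means, and r within each diet was not computed. For M6pr the r also carries the choice of that gene by its counts. S100a9, for a calcium-binding protein abundant in neutrophils, was the 1 marker past the filter, at a log2FC of 2.27 (SE 0.48, edgeR adjusted p = 0.377). In edgeR on genes with a count 5 of the 9 markers passed an unadjusted p of 0.05, all higher in the FO group, against 2.58% of all genes called higher. Of these 5, Camp had 4 counts from FO and 0 from CO mice, and Ngp 5 and 0. Two-sided exact permutation p-values were 0.0079 for S100a9, 0.032 for S100a8, 0.11 for Retnlg, 0.17 for Camp and 0.44 for Ngp. Ltf had a negative log2FC of -0.47 (SE 0.73), and the other 8 markers a positive one. The part of neutrophils in the level of Npc2 was not tested.

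Lamp1 spans 13159161 to 13175338 of chromosome 8 and overlaps Grtp1 on the opposite strand. FO mice 1 to 5 had 94.4, 84.8, 109.7, 103.8 and 137.5 CPM. CO mice 1 to 5 had 39.9, 69.2, 92.0, 109.2 and 91.9 CPM. Of the FO mice 4 lay above the CO median, and CO mouse 1 was the lowest of all, on 6 counts. The log2FC of 0.30 (SE 0.26) was within the spread between mice (edgeR p = 0.25, two-sided exact permutation p = 0.13).

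The remaining proteases and Grn had lower levels and overlapping groups. Ctsh encodes cathepsin H, a protease that also takes part in the processing of surfactant proteins in alveolar type 2 cells. Its FO values ran from 12.9 to 39.3 CPM and its CO values from 0 to 28.5 CPM, where the 0 was CO mouse 1 with its floor of 19.9 CPM. The log2FC was 0.20 (SE 0.39, edgeR p = 0.61, exact permutation p = 0.53). Summed markers of alveolar type 2 cells, all 10 of them found, ran from 1868 to 3949 CPM across FO mice and from 1144 to 3293 CPM across CO mice. Of these markers 8 passed the filter, 8 with a positive log2FC and 0 past an unadjusted p of 0.05 in edgeR.

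Grn, for progranulin, a secreted and lysosomal protein, overlaps Fam171a2 on the opposite strand. It ran from 16.1 to 27.6 CPM across FO mice and from 6.65 CPM, on 1 count in CO mouse 1, to 34.1 CPM across CO mice, with a log2FC of -0.10 (SE 0.34, edgeR p = 0.78, exact permutation p = 0.73). Ctsb and Lgmn had 95 and 43 counts over the 10 mice. Ctsb, which overlaps Fdft1 on the opposite strand, ran from 8.05 to 29.5 CPM across FO mice and from 9.45 to 21.3 CPM across CO mice, with a log2FC of 0.19 (SE 0.46, edgeR p = 0.68, exact permutation p = 0.82). Lgmn ran from 2.30 to 12.9 CPM across FO mice, both on 2 counts, and from 0 in CO mouse 1 to 13.1 CPM on 6 counts across CO mice, so that all but the last lie under the floor of 3 counts. It had a log2FC of -0.22 (SE 0.63, edgeR p = 0.73, exact permutation p = 0.75). For these 4 genes the SE exceeded the difference, and a diet difference was not detectable at this depth.

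**Figure D4:**
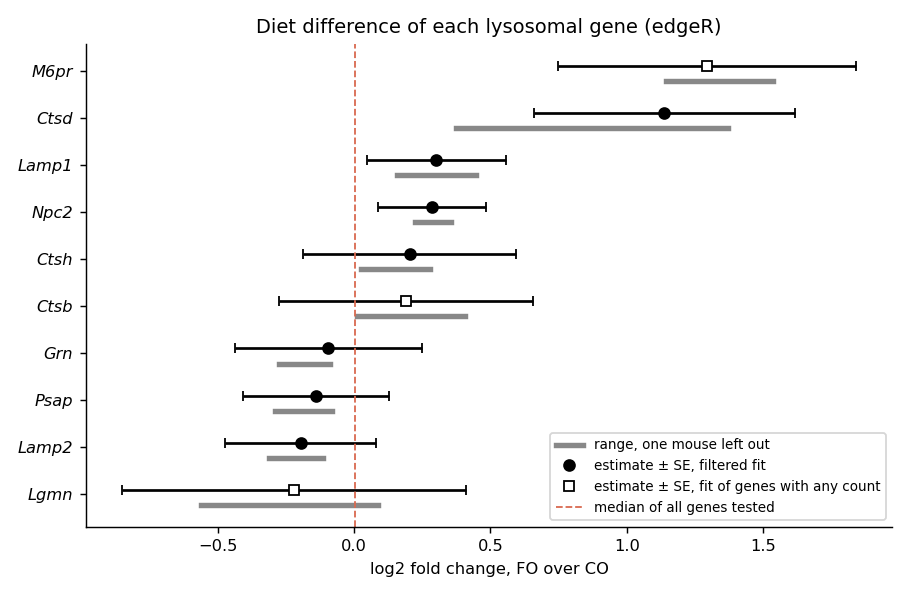
Log2 fold change of FO over CO for each of the 10 genes by edgeR, with its standard error as a bar, the range over runs without 1 mouse as a grey line, and the median of all genes tested as a dashed line. Ctsd spans 0.37 to 1.37 over these runs, M6pr 1.14 to 1.54, and the other 8 genes stay between -0.56 and 0.45.

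Pearson correlations of log2 CPM over their 45 pairs ran from -0.86 to 0.83 across the 10 mice, with a median of 0.21, and 33 were above 0. No such values were computed for other genes. The lowest was that of Ctsd with Lamp2 (Spearman rho -0.32), which was -0.32 without FO mouse 3. Ctsd with Psap had 0.73 (Spearman rho 0.26), and 0.09 without FO mouse 3. The highest, Lamp1 with Ctsh at 0.83 (Spearman rho 0.37), was -0.38 without CO mouse 1 and FO mouse 5, the farthest from the median of Lamp1. These pairs thus rest on 1 or 2 mice. The genes most like the mean level of the 7 tested members were Abi1 (r = 0.92), Ipo5 (0.92), Carhsp1 (0.90), Stag2 (0.88) and Postn (0.88), in the same 10 libraries.

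Other genes of the lysosome were taken from 7 lists with 132 genes, all found in the table, of which 124 had a count and 32 passed the filter. Of the 32, 0 passed an unadjusted p of 0.05 in edgeR and 0 in DESeq2, against 2.91% of all genes tested in edgeR. Their median log2FC was 0.18, with 25 above 0 and 7 below, against a median of 0.00 and 50.6% above 0 over all genes tested. With library size alone their median was -0.34 and 2 of the 32 were above 0, where all genes tested had a median of -0.55. All directions of the lists are on the TMM scale and shift with it.

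Proteases and their inhibitors had 4 genes tested, 4 with a positive log2FC and a median of 0.36. The most abundant was Cst3, for the cathepsin inhibitor cystatin C, with 188 ± 66.2 CPM in FO and 144 ± 37.9 CPM in CO mice (SD, n = 5), a log2FC of 0.37 (SE 0.27). Membrane proteins had 6 genes tested, 4 above 0 and a median of 0.24, and the most abundant, Laptm4a, had a log2FC of 0.23 (SE 0.22). The V-ATPase, the proton pump that acidifies lysosomes, had 8 subunit genes tested, 7 above 0 and a median of 0.18, and the most abundant, Atp6v1f, had a log2FC of 0.15 (SE 0.24).

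Regulators of lysosome formation had 4 genes tested, 3 above 0 and a median of 0.30. The most abundant, Sqstm1, for the autophagy receptor p62, had 80.2 ± 13.9 CPM in FO and 57.9 ± 9.01 CPM in CO mice (SD, n = 5) and a log2FC of 0.39 (SE 0.24, edgeR p = 0.11, two-sided exact permutation p = 0.016, unadjusted). Genes for the sorting of enzymes to lysosomes, the role of M6pr, had 8 tested, 5 above 0 and a median of 0.04. The most abundant of these was Cltc, for the clathrin heavy chain, at a log2FC of 0.06 (SE 0.21). Other hydrolases had 2 genes tested, both above 0, and the more abundant, Ids, had a log2FC of 0.15 (SE 0.36). Single mice moved Ids, to 0.83 (SE 0.32), past the edgeR threshold, without CO mouse 4, and to -0.027 without CO mouse 3.

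**Figure D5:**
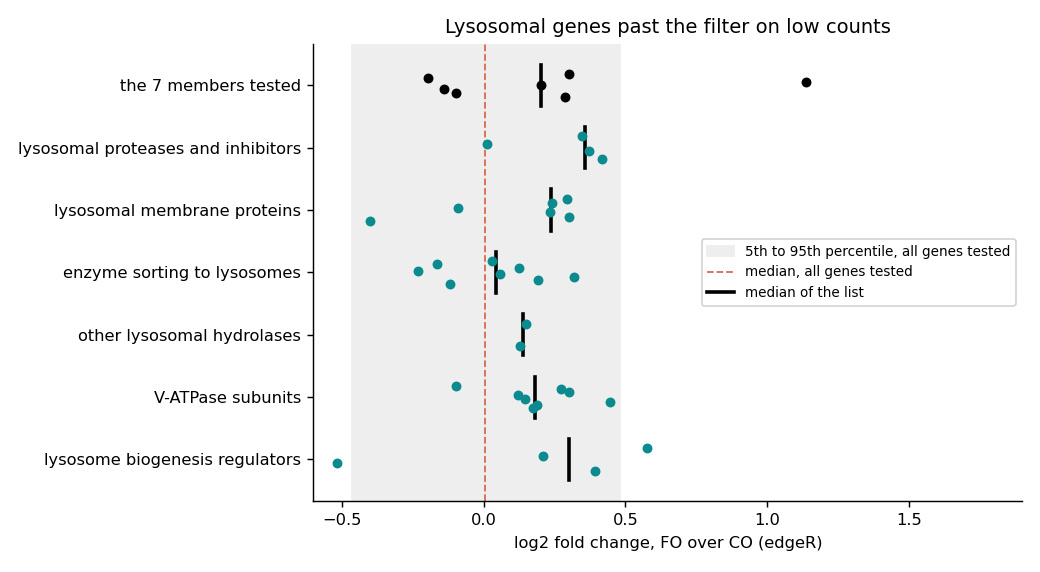
Log2 fold changes of FO over CO by edgeR (TMM scale) for the 7 tested members and the 32 other lysosomal genes past the filter, 1 point per gene and 1 row per list, with each list's median as a black line and the 5th to 95th percentile of all 2438 genes tested in grey. Medians of the 6 lists with tested genes lie between 0.04 and 0.36, and Ctsd stands alone on the right at 1.14.

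Genes of lysosomal sphingolipid breakdown, the process in which saposins act, had low counts that differed widely. Gm2a had 86 counts from FO and 42 from CO mice, and Gla had 3 and 6. Of the 11 genes of that list 10 had a count and 0 passed the filter. The most abundant was Gm2a, for the activator protein of ganglioside breakdown, with 30.0 ± 10.1 CPM in FO and 13.5 ± 7.97 CPM in CO mice (SD, n = 5). Its log2FC was 0.81 (SE 0.42, edgeR p = 0.057, adjusted p = 0.905, two-sided exact permutation p = 0.024, unadjusted). It passed the edgeR threshold in 6 alternatives, which were Rn45s left out, the replicate block (0.99), FO mouse 2 and CO mouse 5 left out (1.07), and single runs without FO mouse 2, CO mouse 4 or CO mouse 5, and did not in the other 10. Hexa, for the alpha subunit of hexosaminidase A, had a log2FC of 0.54 (SE 0.48), Asah1, for acid ceramidase, one of -0.27 (SE 0.52), and Smpd1, for acid sphingomyelinase, one of 0.17 (SE 0.69), and these 3 did not pass the edgeR threshold.

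In edgeR on the 14161 genes with a count, 7 of the 124 list genes passed an unadjusted p of 0.05, 3 higher and 4 lower in the FO group, against 2.58% of all genes higher and 1.57% lower. SE and p-values of this run can understate the spread between mice, as seen for Ctsd. All 7 had an edgeR adjusted p of 0.905, and DESeq2 on the same genes called 1 of the 124, Vps29. They were named after their values were seen. Of the 4 lower ones Acp5, for an acid phosphatase, had 0 counts from FO and 6 from CO mice, too few for a fold change. Dpp7, for a dipeptidyl peptidase, had 2 and 10 counts and a log2FC of -2.30 (SE 1.05). Slc38a9, for an amino acid transporter of the lysosomal membrane, had 3 and 11 counts (log2FC -2.08, SE 0.99), and Gusb, for beta-glucuronidase, had 15 and 30 (log2FC -1.33, SE 0.62). The 3 higher ones were Vps29, Cd68 and Galc. Vps29, for a subunit of retromer, the complex that returns sorting receptors from endosomes to the Golgi, had 18.7 ± 11.8 CPM in FO and 6.98 ± 1.35 CPM in CO mice (SD, n = 5). It rested on 54 and 18 counts, and its log2FC was 1.26 (SE 0.54). Its groups did not overlap, which held for 0.41% of the 2438 genes past the filter. That share was not computed over all genes with a count, so nothing is read from it. Cd68, for a membrane protein of macrophage lysosomes, and Galc, for galactosylceramidase, had 18 and 20 counts from FO and 3 each from CO mice, with log2FC values of 2.00 (SE 0.95) and 2.10 (SE 0.94). Most of these calls depended on the settings. Of 16 alternatives 8 ended the call of Cd68, 7 that of Galc, 8 that of Gusb, 7 that of Slc38a9 and 6 that of Dpp7, against 2 for Vps29 (library size alone, and without FO mouse 5) and 1 for Acp5 (DESeq2). For Galc these were DESeq2, library size alone, the replicate block (1.60), FO mouse 2 and CO mouse 5 left out, and the runs without FO mouse 1, CO mouse 3 or CO mouse 5.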

How the data were processed

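Lung RNA of 10 mice was sequenced. Per the labels, reads were aligned to mm10, and the processing notes of the submitters name STAR 2.4.0f1, SAMtools 0.1.19 and HTSeq. The authors deposited raw counts per gene symbol, without normalization. The annotation and strand setting of the counting are not given in the sources used here, nor whether a mouse had the TruSeq RNA v2 or the riboZero kit. Diets came from the sample titles.

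Counts were tested with edgeR 4.0.16 (R 4.3.3), with TMM scaling, the default filter (minimum count 10, minimum total 15; 2438 genes) and the quasi-likelihood test (common dispersion 0.0956). The threshold was an unadjusted p-value under 0.05, as in the study's methods, with Benjamini-Hochberg values beside it. Genes under the filter were read from the run on 14161 genes with any count, whose SE and p-values can understate the spread between mice. Log2 CPM used a prior count of 2. Exact permutation tests of single genes ran over 252 assignments. Gene positions and exon lengths are from GENCODE M21. The filtered edgeR test was checked on counts simulated at the common dispersion, with no mouse made to stand apart, which does not cover a case such as FO mouse 3. Alternatives were DESeq2 1.42.0, RLE factors, library size alone, 2 other filters, leaving out Rn45s, a replicate block, and leaving out mice. DESeq2 on genes with any count was added after seeing the data.

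Members and lists were chosen with earlier results of these data known. Besides the 10 members, the most abundant gene of each list, the genes most like M6pr and the members, and markers were named. Vps29, Cd68, Galc, Acp5, Dpp7, Gusb, Slc38a9, Hexa, Asah1 and Smpd1 were chosen after their values were seen.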

Additional observations from a re-analysis of the deposited data

Results flagged for a closer look

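Dixon's ratio was examined in 42 groups of 5 mice, and in 5 of them 1 mouse stood apart at the 95% level. Chance gives about 2.1 if all mice have equal spread, which libraries of unlike depth do not have, so no excess is read from this. In 4 of the 5 that mouse was FO mouse 3, a shallow library with a floor of 19.4 CPM. Ctsd was at 316.1 CPM in FO mouse 3, on 49 counts, and between 46.0 and 68.8 CPM in the other FO mice. Psap was at 71.0 CPM there, on 11 counts, and between 38.0 and 39.5 CPM in the others. Lamp2 was at 19.4 CPM, on 3 counts, against 44.5 to 49.1 CPM. For both genes the exact 95% Poisson interval of FO mouse 3 took in the other FO mice (Psap 35.4 to 127.0 CPM, Lamp2 3.99 to 56.6 CPM). Cltc was at 122.6 CPM, on 19 counts, against 140.8 to 146.7 CPM. The remaining mouse was CO mouse 4, with 81.9 CPM of Ids on 78 counts, against 19.7 to 32.0 CPM in the other CO mice.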

How the results depend on the processing

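Of all genes tested 71 passed the threshold, and 36 did with library size alone (1 higher in FO), 587 among genes with any count, 15 of 633 with at least 10 counts in every mouse, and 54 to 154 when single mice were left out, the most without FO mouse 2. Among the members 1 was called, Ctsd, and 0 with library size alone or with at least 10 counts in every mouse, where Npc2 was the 1 member tested. Leaving out single mice gave 0 to 1, with 0 without FO mouse 3, CO mouse 2 or CO mouse 4. Of the other lysosomal genes 0 were called, 7 among genes with any count, 2 (Ctss and Sqstm1) without FO mouse 2 and CO mouse 5, and 0 to 2 without single mice, with Gm2a and Ids called without CO mouse 4 and Ctss without CO mouse 5. The share of calls that were higher in FO was 57.7%, and 2.78% with library size alone, 40.0% with at least 10 counts in every mouse and 45.8% without FO mouse 2 and CO mouse 5. Without single mice it ran from 33.8% (FO mouse 2) to 66.7% (FO mouse 1).

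With library size alone log2FC turned negative for Lamp1 (-0.40), Ctsb (-0.18), Ctsh (-0.27), Npc2 (-0.25), Cst3 (-0.25), Laptm4a (-0.29), Cltc (-0.48), Ids (-0.75), Atp6v1f (-0.47), Sqstm1 (-0.20), Smpd1 (-0.15) and C1qa (-0.46), while the median of all genes tested moved to -0.55. Cltc was at -0.0012 and Asah1 at 0.059 without FO mouse 2 and CO mouse 5. Without single mice log2FC ran from -0.56 to 0.086 for Lgmn, from -0.010 to 0.14 for Cltc, from -0.62 to 0.11 for Asah1, from -0.24 to 0.47 for Smpd1, from -0.029 to 0.34 for C1qa and from -0.027 to 0.83 for Ids. Ctsh and Grn passed the filter in 5 of the 10 runs without a mouse. With Rn45s left out 3484 genes passed the filter, among them 9 of the 10 members and 47 list genes. In that run 106 genes were called, and Ctsd was the only member among them. For changes not traced to fewer genes or mice, the cause was not tested.

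With the replicate number as a block, 55 genes were called, Ctsd kept its call, Grn was at 0.023, Gm2a passed the threshold, and Galc, Cd68, Dpp7 and Slc38a9 lost their calls. Same-numbered mice correlated at -0.41 to 0.03 over 5 pairs, with a mean of -0.12, against a mean of 0.03 for other pairs. The titles do not say what the number stands for, and a shared cage or run was not tested.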
